A study of Mus musculus with 8 samples.

Results

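COPI, COPII and the cargo receptors that work with them move proteins between the endoplasmic reticulum (ER) and the Golgi apparatus. Their RNA was followed here in pancreatic islets, the hormone-secreting cell clusters of the pancreas, of WT and Wfs1KO mice. The set held 40 genes, chosen by symbol from a list of coat subunits and receptors and matched to 40 of the 24537 genes of the count table. It comprised 9 COPI genes, 14 COPII genes, 3 KDEL receptors, 10 TMED genes and 4 other cargo receptors. The list was drawn up with the contrast between the genotypes already known, so the changes of its members are given as descriptions.

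Both groups were untreated male mice aged 12 weeks, with 4 islet samples of genotype WT and 4 of genotype Wfs1KO. Wfs1 encodes wolframin, an ER membrane protein that is mutated in Wolfram syndrome, a disorder with diabetes. The labels give the genotypes by these names and state no allele, strain or pooling of animals. Poly(A) RNA of each sample was sequenced in bulk, so the values average over all cell types in the islets, and fewer cells of a type cannot be told apart from less RNA per cell.

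COPII coats form on the ER when the exchange factor PREB loads the GTPase SAR1, which recruits the inner SEC23 and SEC24 proteins and then the outer SEC13 and SEC31 proteins. SEC24 and transmembrane receptors pick the cargo. COPI, a complex of several subunits, forms on Golgi membranes and carries escaped ER proteins and empty receptors back. KDEL receptors bind soluble ER proteins, such as chaperones, that have reached the Golgi, and return them in COPI vesicles. Islet beta cells depend on this traffic because proinsulin must pass from the ER to the Golgi before it is packed into granules.

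Exon counts per library ran from 15810830 to 27057617. Wfs1 itself fell by 0.74 on the log2 scale. It stood at 156 to 190 CPM (exon counts over the scaled library size) in WT and at 98.9 to 125 CPM in Wfs1KO, counted over all its exons together, so the counts do not show which exons still gave reads. The first principal component (37.9% of the variance) parted replicates 1 and 2 from replicates 3 and 4 in both genotypes, and the labels do not say what the numbers mark. The 8 endocrine markers, Ins1 and Ins2 among them, took 18.5% to 23.2% of counts in WT and 14.04% to 17.8% in Wfs1KO. Of the 8, Ins1, Ins2 and Slc2a2 fell, Sst and Iapp rose, and Gcg, Ppy and Chga were not called. Marker genes of endothelial cells took 0.0611% to 0.0660% of counts in WT and 0.0872% to 0.104% in Wfs1KO, and 12 of the 13 rose. Acinar markers, from the enzyme-secreting cells around islets, ran from 3.22% to 6.93% in WT, and in Wfs1KO from 1.09% (replicate 3) to 6.95% (replicate 4). Of the 14, Bhlha15 rose (log2 fold change 0.57) and was the only 1 above 0, and 13 were not called. The median log2 fold change of the 14 was -0.42. Stellate cell markers took 0.0202% to 0.0275% of counts in WT and 0.0335% to 0.0422% in Wfs1KO (4 of 12 rose), and ductal markers 0.048% to 0.0513% and 0.0532% to 0.0608% (2 of 8 rose, 1 fell). The 8 ductal markers had a median log2 fold change of -0.19, from -0.26 (Muc1) to 0.77 (Spp1), with 2 above 0. Macrophage markers took 0.0183% to 0.0324% of counts in WT and 0.0189% to 0.0522% in Wfs1KO, with overlap. All 8 had a log2 fold change above 0 (median 0.47, SE 0.19 to 0.53). Of these 8, 0 were called by edgeR, DESeq2 or limma-voom. At an unadjusted p under 0.05 in edgeR were 0 of the 8, beside 4893 of all 15733 tested genes. No marker of these lists was at 0 in any library.

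Of the 40 coat and cargo receptor genes, 26 rose in Wfs1KO islets, 1 fell (Tmed8) and 13 were not called in edgeR's quasi-likelihood test of the whole table (adjusted p under 0.05). Over all 15733 tested genes, 10.4% were higher by the same test and 8.49% lower. In 28 of the 40 genes every Wfs1KO library lay above every WT library, which held for 12.3% of all tested genes. The median log2 fold change of the 40 was 0.28, against 0.01 over all tested genes, whose quartiles were -0.13 and 0.18. Because the genes were proposed with this contrast known, nothing is read from these shares. All 40 passed the filter on low counts, with 135 to 21506 counts per library.

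The changes were small in most genes, and Kdelr3 stood apart with a log2 fold change of 1.45. COPI rose in 8 of 9 genes (median log2 fold change 0.28), COPII in 6 of 14 (0.16), the KDEL receptors in 3 of 3 (0.50), the TMED genes in 5 of 10 (0.15) and the other receptors in 4 of 4 (0.37). With replicates 1 and 2 alone, 21 genes were called higher and 1 lower, and with replicates 3 and 4 alone 19 were higher and 0 lower, where 9.47% and 6.35% of all tested genes were higher. Without Wfs1KO replicates 3 and 4, the libraries at both ends of the acinar share, 17 were higher (9.56% of all tested genes). When the acinar score entered the fit as a covariate, 22 were higher (9.29% of all tested genes). The endothelial, stellate and ductal shares were higher and the endocrine share lower in every Wfs1KO library than in every WT library. In the ductal list, however, only 2 of the 8 genes had a log2 fold change above 0 (median -0.19). The part of these shares in the changes was not tested. The authors' deposited table has 26 of the genes higher and 1 lower at an adjusted p under 0.05. The share over all genes of that table is not given here, so these counts have no background beside them.

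**Figure D1:**
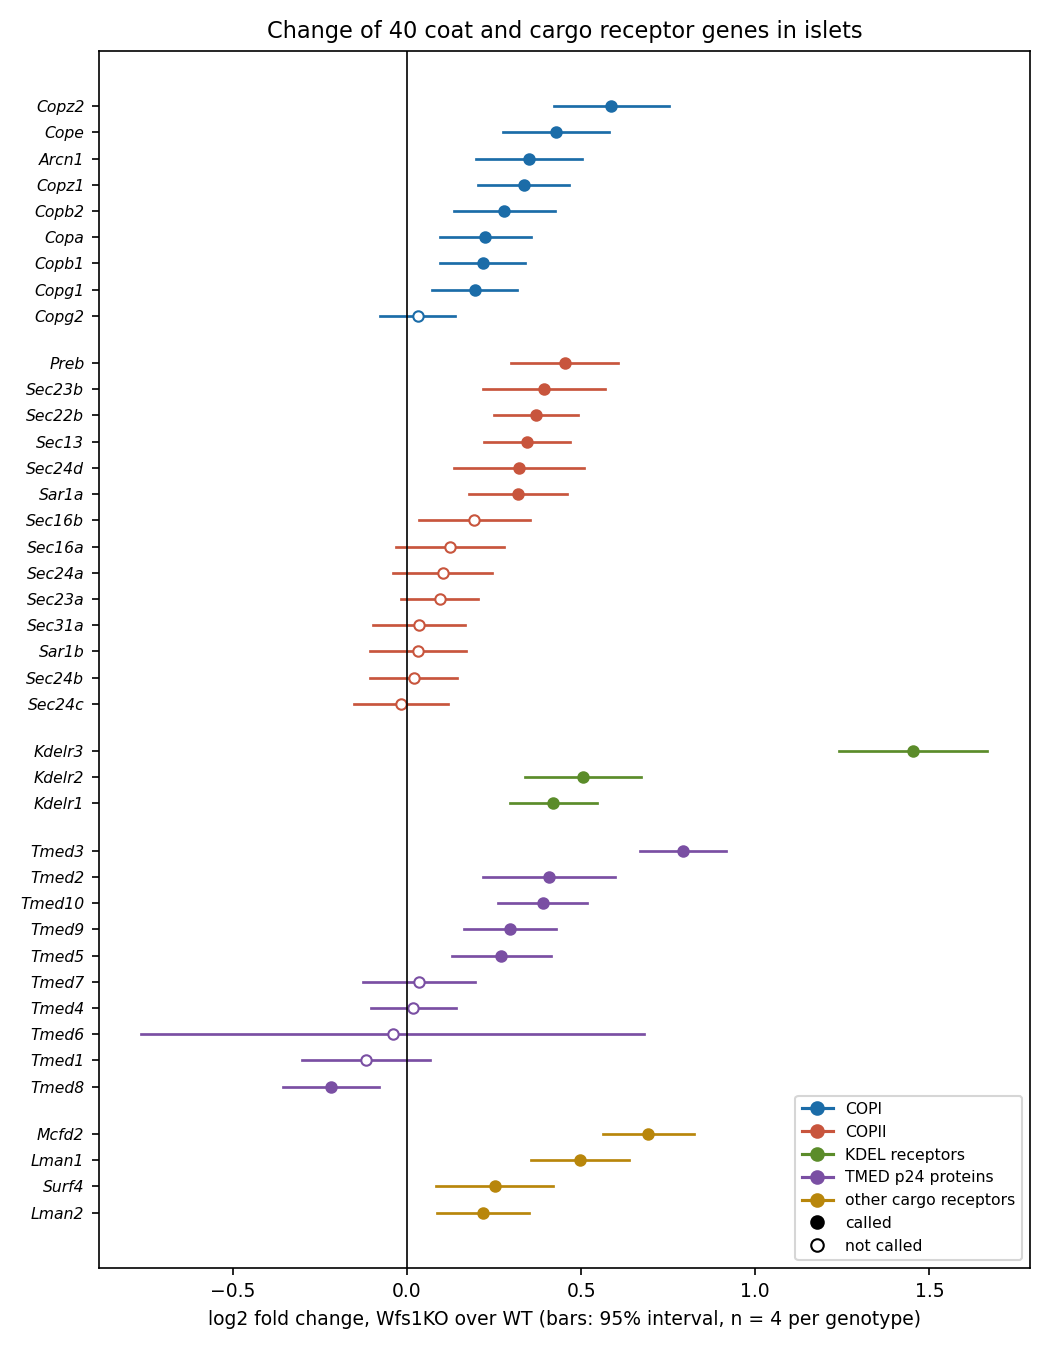
Log2 fold change of each of the 40 genes, Wfs1KO over WT, with its 95% interval (n = 4 per genotype), grouped by class and ordered by size; filled points were called and open points were not. Kdelr3 lies farthest to the right at 1.45, Tmed8 is the called point left of 0, and the interval of Tmed6 is the widest.

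Averaged over the members of a class, the libraries parted by genotype in each of the 5 classes. For the KDEL receptors the mean log2 CPM, taken against the WT mean, lay between -0.17 and 0.11 in WT and between 0.69 and 0.91 in Wfs1KO. COPI lay between -0.07 and 0.03 in WT and between 0.27 and 0.33 in Wfs1KO. COPII lay between -0.08 and 0.06 in WT and between 0.14 and 0.31 in Wfs1KO, where replicate 3 was the highest. The TMED genes came closest to overlap, with 0.10 as the highest WT value and 0.13 as the lowest Wfs1KO value. WT replicate 2 was the lowest library of its genotype in every class, and Wfs1KO replicate 3 the highest of its genotype in every class except the TMED genes. Summed over all 40 genes, the level per kilobase of transcript was 2493 ± 124 CPM per kb in WT and 3090 ± 112 CPM per kb in Wfs1KO (± SD over 4 libraries), a ratio of 1.24. For the KDEL receptors, whose class mean counts Kdelr3 as much as the others, the sums were 156 ± 10.4 and 224 ± 16.6 CPM per kb. Their ratio was 1.44.

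**Figure D2:**
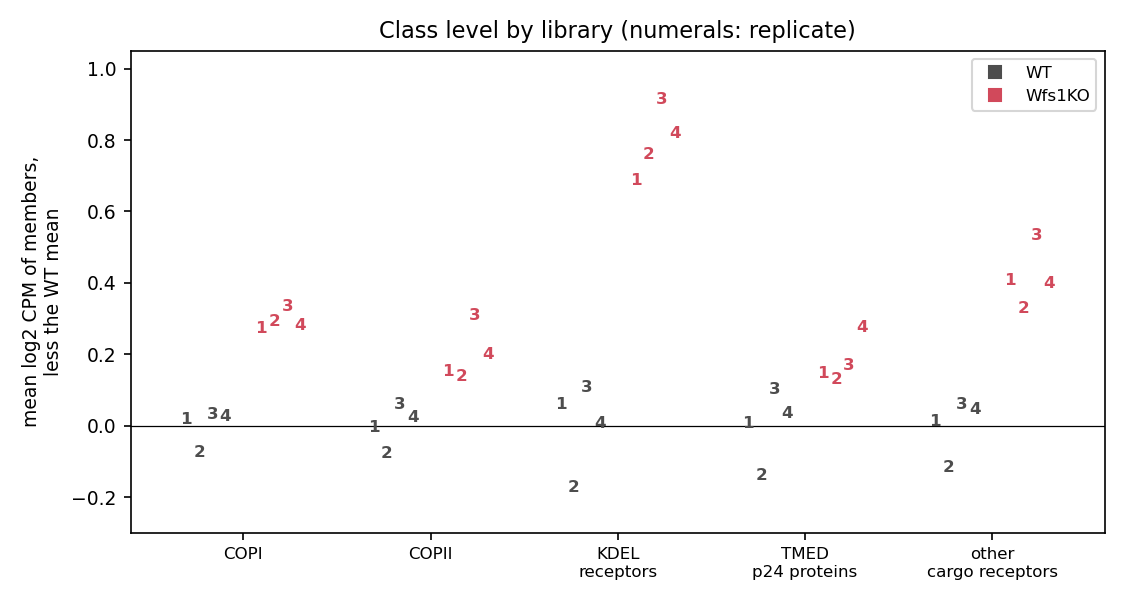
Mean log2 CPM of the members of each class in each library, less the WT mean of the class; each numeral is the replicate number of 1 library, grey for WT and red for Wfs1KO. The Wfs1KO libraries lie above the WT libraries in all 5 classes, between 0.69 and 0.91 for the KDEL receptors and between 0.13 and 0.27 for the TMED genes.

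The promoters of the genes were searched for sequences known to respond to ER or Golgi stress. RefSeq windows of 300 bases (GRCm38.p6, the same build as mm10, 250 bases before the start site and 50 from it on) were found for 35 of the 40 genes, 39 windows in all. The letters ACGTGGC, the core of a Golgi stress response element, occurred on either strand in windows of 13 genes, 33.3% of the 39 windows, against 2.58% of all 32851 windows of the genome and 3.46% of the 15137 windows of tested genes. The letters TGACGTG, the core of an unfolded protein response element, occurred in 6 genes, 15.4% of the windows, against 2.01% of all windows and 2.61% of those of tested genes. The full ER stress response element, CCAAT and CCACG with 9 bases between them, occurred in 0 of the 35 genes, as did its second form, ATTGG and CCACG with 1 base between them, and TGATGCAA, an element bound by ATF4. These 3 were rare in general, in 0.119%, 0.0365% and 0.895% of all windows. The 5 letters CCACG were searched for after the other results were seen. They occurred in 27 genes, 76.9% of the windows, against 32.8% of all windows and 44.9% of those of tested genes. ACGTGGC holds CCACG on its other strand, so all 13 genes with ACGTGGC are among the 27, and these counts are not independent.

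The overlapping pair of motifs and the single ACGTGGC sites can be compared in 6 windows, printed because they hold the letters beside the largest changes and beside genes that were not called. The first 2 motifs overlapped as TGACGTGGC in Kdelr3, Sec24d, Sec16b and Sec23a, and 0.201% of all windows hold that run. Of these 4 genes, Kdelr3 and Sec24d rose, and Sec16b and Sec23a were not called. Tmed3 and Mcfd2, the next largest changes after Kdelr3, hold ACGTGGC without the rest. Of the 13 genes with ACGTGGC, 9 rose and 4 were not called, and of the 22 genes with a window but without these letters, 13 rose, 1 fell and 8 were not called. The 6 windows were picked after the values were seen, and a match of letters shows no binding. They lie at chr15:79516352-79516410 (plus strand) for Kdelr3, chr3:123267445-123267503 (plus) for Sec24d, chr1:157506727-157506785 (plus) for Sec16b, chr12:59011988-59012036 (minus) for Sec23a, chr9:89705213-89705269 (minus) for Tmed3 and chr17:87266107-87266163 (minus) for Mcfd2. Each is given 5′ to 3′ on the strand of its gene with the motifs in capitals, which read as the reverse complement in Kdelr3 and Mcfd2.
Kdelr3: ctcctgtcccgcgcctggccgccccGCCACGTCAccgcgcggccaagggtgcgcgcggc
Sec24d: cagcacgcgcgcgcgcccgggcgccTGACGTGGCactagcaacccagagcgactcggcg
Sec16b: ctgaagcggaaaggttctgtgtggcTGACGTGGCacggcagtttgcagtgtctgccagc
Sec23a: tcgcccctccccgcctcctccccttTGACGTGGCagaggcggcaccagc
Tmed3: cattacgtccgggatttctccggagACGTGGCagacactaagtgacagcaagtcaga
Mcfd2: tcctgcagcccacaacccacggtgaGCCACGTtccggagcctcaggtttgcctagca

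The capitals start 31 bases before the start site in Kdelr3, 26 before it in Sec24d and 44 before it in Sec16b, and at base 7 of the transcript in Sec23a. In Tmed3 the printed site starts 201 bases before the start site, and a second ACGTGGC on the other strand, at bases 30 to 36 of the transcript, lies outside the printed window.

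COPI, the coat of retrograde vesicles, rose in all of its subunit kinds, with Copg2 as the 1 gene that was not called. Copz2, the less abundant of the zeta subunits, had 34.9, 28.4, 29.2 and 28.9 CPM in the WT libraries and 47.9, 48.9, 42.4 and 43.1 CPM in the Wfs1KO libraries, in the order of their replicate numbers, as for every gene given in this way. All Wfs1KO libraries lay above all WT libraries, among which replicate 1 was the highest, and the change was 1.502-fold (log2 fold change 0.59, SE 0.08, adjusted p = 0.000141). Cope, the epsilon subunit, stood at 128, 134, 143 and 149.6 CPM in WT and at 199, 197, 186 and 163 CPM in Wfs1KO. The groups did not overlap, Wfs1KO replicate 4 was the nearest to WT, and the log2 fold change was 0.43 (SE 0.07, adjusted p = 0.000819).

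Copz1, the main zeta subunit, was measured at 91.2, 97.6, 92.4 and 99.5 CPM in WT and at 116, 129, 126 and 110.1 CPM in Wfs1KO, a log2 fold change of 0.34 without overlap (adjusted p = 0.00157). Arcn1, the delta subunit, had 290.1, 245, 284 and 266 CPM in WT and 324, 325, 353 and 381 CPM in Wfs1KO, a log2 fold change of 0.35 (adjusted p = 0.00339). Both rose to about the same extent, and the groups did not overlap. Copa, the alpha subunit that binds the retrieval signals of membrane cargo, had the highest COPI level per kilobase. It stood at 625, 602, 662 and 650.1 CPM in WT and at 753, 702, 763 and 749 CPM in Wfs1KO, with Wfs1KO replicate 2 the lowest of its group and still above WT.

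The rise of Copa was small (log2 fold change 0.23, adjusted p = 0.0189), and its call ended when any of WT replicate 1 and Wfs1KO replicates 1, 3 and 4 was left out (adjusted p 0.0554 to 0.0694). Copb1 (0.22), Copb2 (0.28) and Copg1 (0.19), the beta, beta-prime and main gamma subunits, rose by similar amounts, without overlap between genotypes. Copb1 was no longer called when Wfs1KO replicate 3 or 4 was left out (adjusted p = 0.069 and 0.0666). Nor was Copg1 when any of WT replicates 1 and 2 and Wfs1KO replicates 1, 3 and 4 was left out (0.0555 to 0.118). Copg2, the second gamma subunit, ranged from 58.6 to 61.4 CPM in WT and from 58.8 to 64.0 CPM in Wfs1KO, overlapping, with a log2 fold change of 0.03 (95% interval -0.08 to 0.14). Some exons of Copa, Copg1 and Copg2 overlap genes on the other strand (for Copg2, 912 bases of Mest), and without strand their reads cannot be told apart.

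COPII, the coat of anterograde vesicles, was split between members that rose and members that were not called. The GTPase Sar1a and its activator Preb rose, as did 1 SEC23 gene, 1 SEC24 gene, the outer coat gene Sec13 and the vesicle SNARE Sec22b. Sec22b, which pairs with Golgi SNAREs when vesicles fuse, stood at 121, 104, 116 and 113 CPM in WT and at 145, 144, 154 and 144 CPM in Wfs1KO. Its groups did not overlap, and the log2 fold change was 0.37 (SE 0.06, adjusted p = 0.000404).

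Preb stood at 170.5, 177, 175 and 163 CPM in WT and at 214, 229, 273 and 223 CPM in Wfs1KO, with replicate 3 the highest. The log2 fold change was 0.45 (SE 0.07, adjusted p = 0.000589). The counted exons of Preb overlap 1575 bases of Abhd1 on the other strand, so reads of the pair cannot be told apart. Sec13, which caps the cage together with SEC31 and also belongs to the nuclear pore, had 50.1, 51.8, 57.5 and 56.6 CPM in WT and 68.4, 70.2, 69.9 and 65.6 CPM in Wfs1KO. No library of Sec13 crossed between groups (log2 fold change 0.34, adjusted p = 0.000891). Sar1a, the most abundant COPII gene per kilobase, had 289, 255, 301 and 309.8 CPM in WT and 349, 359, 376 and 358 CPM in Wfs1KO. It was lowest in WT replicate 2, without overlap of the groups (log2 fold change 0.32, adjusted p = 0.00356).

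Sec23b rose with a log2 fold change of 0.39 and Sec24d with one of 0.32, and leaving out Wfs1KO replicate 3 or 4 ended the call of Sec24d (adjusted p = 0.0623 and 0.0645). The other SEC24 genes, which select cargo as Sec24d does, had log2 fold changes of 0.10 (Sec24a), 0.02 (Sec24b) and -0.02 (Sec24c), each with an interval that included 0. Sec31a, the partner of Sec13 in the outer cage, was at 395 to 422 CPM in WT and at 391 to 454 CPM in Wfs1KO (log2 fold change 0.03, 95% interval -0.10 to 0.17). Sar1b, the second SAR1 GTPase, had a log2 fold change of 0.03 and overlapping groups. Sec16a and Sec16b, scaffolds of ER exit sites, had log2 fold changes of 0.12 and 0.19 and were not called (adjusted p = 0.275 and 0.0876). In Sec16b and Sec23a (log2 fold change 0.09, adjusted p = 0.242) every Wfs1KO library nevertheless lay above every WT library. Sec16b passed the threshold only with a block of replicates 1 and 2 against 3 and 4 (adjusted p = 0.0425). Exons of Sec23a and Sec24c overlap antisense genes.

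All 3 KDEL receptors rose, and the least abundant of them rose most. Kdelr3 (NM_134090, chr15:79516408-79527739 in mm10, plus strand) was at 9.57, 7.79, 10.8 and 8.54 CPM in WT and at 22.3, 26.1, 26.0 and 25.9 CPM in Wfs1KO. Wfs1KO replicates 2 to 4 lay close together with replicate 1 below them, and the groups did not overlap. The means were 9.18 ± 1.31 and 25.1 ± 1.86 CPM (SD, n = 4 each), a ratio of 2.74, and the log2 fold change was 1.45 (SE 0.10, adjusted p = 5.36e-07), and over the 21 alternatives it ran from 1.38 to 1.54. Exons of Kdelr3 overlap 4 bases of Ddx17 on the other strand.

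Kdelr2 stood at 147, 122, 141 and 145 CPM in WT and at 179.6, 186, 224 and 198 CPM in Wfs1KO, or 0.50 on the log2 scale (SE 0.08, adjusted p = 0.000491). Kdelr1 stood at 114, 104, 116 and 116 CPM in WT and at 148, 141, 162 and 152 CPM in Wfs1KO, or 0.42 on the log2 scale (SE 0.06, adjusted p = 0.000207). In both genes WT replicate 2 was the lowest library, Wfs1KO replicate 3 the highest, and the groups did not overlap. Despite its rise, Kdelr3 remained far below the others in Wfs1KO, at 17.8 CPM per kb against 99.3 for Kdelr1 and 107 for Kdelr2.

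The TMED genes are named for p24 proteins, small membrane proteins that cycle between ER and Golgi in hetero-oligomers of alpha, beta, gamma and delta kinds and help load cargo into coats. The beta member Tmed2, the delta member Tmed10, the alpha member Tmed9 and the gamma members Tmed3 and Tmed5 rose. Tmed3 (NM_025360, chr9:89699203-89705043, minus strand) was at 180.3, 161, 165 and 180.5 CPM in WT and at 290.3, 311, 293 and 295 CPM in Wfs1KO. The spread within each genotype was small beside the gap between them, from means of 172 ± 10.3 to 297 ± 9.22 CPM (SD, n = 4 each). The ratio was 1.73 (log2 fold change 0.79, SE 0.06, adjusted p = 9.72e-07), and the log2 fold change stayed between 0.76 and 0.82 over the 21 alternatives.

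Tmed10 stood at 200.1, 179.5, 205 and 206 CPM in WT and at 251, 250.4, 273 and 263 CPM in Wfs1KO (log2 fold change 0.39, adjusted p = 0.000446). Tmed2 stood at 37.7, 35.5, 48.2 and 42.5 CPM in WT and at 53.2, 49.8, 58.7 and 55.3 CPM in Wfs1KO (log2 fold change 0.41, adjusted p = 0.00546). These partners in p24 complexes rose alike; Tmed2 had the narrower gap, with WT replicate 3 just below Wfs1KO replicate 2. Tmed9 stood at 138, 129, 136 and 143 CPM in WT and at 173, 165, 182 and 152 CPM in Wfs1KO (log2 fold change 0.30, adjusted p = 0.00383), with Wfs1KO replicate 4 nearest to WT. Tmed5 rose with a log2 fold change of 0.27. Exons of Tmed10 overlap 71 bases of Gm47819 on the other strand, and those of Tmed1 overlap 207 bases of Dnm2 on the other strand.

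Tmed8, which carries the family name but was assigned to none of the p24 kinds here, was the 1 gene of the 40 that fell. The gene (NM_001033475, chr12:87166242-87200229, minus strand) stood at 415, 367, 395 and 378 CPM in WT and at 317, 314, 352 and 355 CPM in Wfs1KO, without overlap but with Wfs1KO replicate 4 close to WT replicate 2. The log2 fold change was -0.22 (SE 0.06, adjusted p = 0.0291). The call ended when any of WT replicates 1 and 3 and Wfs1KO replicates 1 and 2 was left out (adjusted p 0.0865 to 0.107). It also ended when the acinar score entered as a covariate (0.0733), as did the calls of Copg1 (0.0785), Sec24d (0.0527), Lman2 (0.0759) and Surf4 (0.107), which rose.

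Tmed1 (log2 fold change -0.12), Tmed4 (0.02), Tmed6 (-0.04) and Tmed7 (0.04) were not called and had overlapping groups. Tmed6, a gamma member, spread the most of the 40 genes. It was at 21.9, 20.1, 33.0 and 21.0 CPM in WT and at 19.0, 21.7, 15.8 and 36.3 CPM in Wfs1KO. The acinar marker share in the same libraries was 4.47%, 3.36%, 6.93% and 3.22% in WT and 3.15%, 3.10%, 1.09% and 6.95% in Wfs1KO. The highest library of each genotype was the same in both measures, as was the lowest of Wfs1KO. Its log2 fold change of -0.04 had a 95% interval of -0.76 to 0.68, and a fit that included the acinar score gave 0.20 (adjusted p = 0.226).

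The other cargo receptors all rose. Lman1 (ERGIC-53), a mannose-binding lectin, and Mcfd2, its calcium-binding partner, form a receptor known for exporting coagulation factors from the ER. Mcfd2 (NM_176808, chr17:87254443-87265947, minus strand) was at 96.9, 84.6, 98.6 and 89.4 CPM in WT and at 143, 144, 156 and 155 CPM in Wfs1KO, a ratio of 1.62 (log2 fold change 0.69, SE 0.06, adjusted p = 5.49e-06). Lman1 was at 415, 406, 428 and 429 CPM in WT and at 596, 540.1, 652 and 580.2 CPM in Wfs1KO, a ratio of 1.41 (log2 fold change 0.50, SE 0.07, adjusted p = 0.000149). In both genes the WT libraries lay close together and every Wfs1KO library was far above them.

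Lman2 (VIP36), a related lectin, was at 305, 287, 315 and 326 CPM in WT and at 365, 336, 384 and 349 CPM in Wfs1KO (log2 fold change 0.22, adjusted p = 0.0239). Surf4, a receptor for soluble secretory proteins, was at 415, 362, 439 and 448 CPM in WT and at 489.5, 467, 552 and 473 CPM in Wfs1KO (log2 fold change 0.25, adjusted p = 0.0369). The groups did not overlap in either gene, but the gaps were small, and both calls were lost without single libraries. For Lman2 these were WT replicates 1 and 2 and Wfs1KO replicates 1 and 3 (adjusted p 0.0551 to 0.098), and for Surf4 they were WT replicates 1, 2 and 3 and Wfs1KO replicates 1, 3 and 4 (0.052 to 0.13). Exons of Surf4 overlap 143 bases of Surf2 on the other strand.

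**Figure D3:**
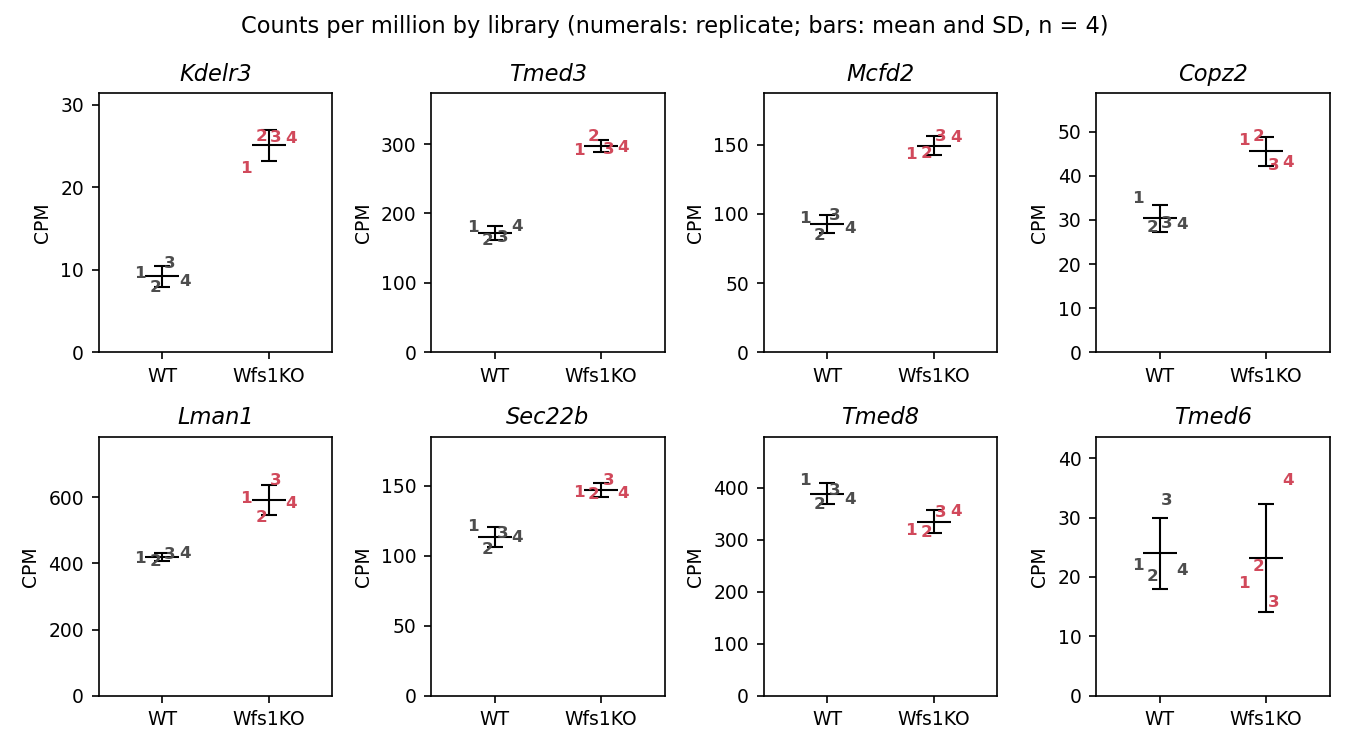
CPM of 8 genes in each library, on axes that start at 0; numerals are replicate numbers and bars give the mean and SD of 4 libraries per genotype. The genotypes do not overlap in 7 of the 8 genes, Tmed8 is the gene that is lower in Wfs1KO, and Tmed6 spreads from 15.8 to 36.3 CPM within Wfs1KO; the genes were picked after their values were seen.

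Where islets express several versions of a subunit, the length-scaled counts were split into shares of the set, which add up to 100% and so show only unequal change. Kdelr3 made up 4.17% ± 0.441 of KDEL receptor RNA in WT and 7.98% ± 0.59 in Wfs1KO (4 libraries each, ± SD), and Kdelr1 47.6% ± 0.9755 and 44.4% ± 1.28. The share of Kdelr2 overlapped between genotypes. On raw counts, not scaled for length, the share of Kdelr1 overlapped too.

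Sec24d had the largest mean share of SEC24 RNA, with 41.4% ± 2.03 in WT and 46.8% ± 1.19 in Wfs1KO, and Sec24c came next with 37.4% ± 1.59 and 33.4% ± 0.76. Sec23b made up 81.4% ± 0.961 of SEC23 RNA in WT and 84.4% ± 1.07 in Wfs1KO. Sar1a made up 61.8% ± 1.198 of SAR1 RNA and 66.4% ± 1.26. The genotypes did not overlap in these shares, whereas the shares of Sec24a and Sec24b overlapped. Sec24d did not lead in every case: in WT replicate 2 Sec24c was above it (39.6% against 38.9%), as it was in the WT mean on raw counts (37.8% against 36.2%).

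Copg1 made up 85.5% ± 0.206 of the gamma subunits in WT and 86.9% ± 0.391 in Wfs1KO, without overlap, while the shares of Copz1 and Copz2 and those of Sec16a and Sec16b overlapped. Lman1 made up 62.2% ± 0.702 of the summed Lman1 and Lman2 RNA in WT and 66.6% ± 0.527 in Wfs1KO, without overlap. For the p24 proteins, grouped after their values were seen, Tmed3 made up 53.0% ± 2.81 of the gamma kind in WT and 65.6% ± 3.09 in Wfs1KO. Tmed7, next in abundance, made up 27.5% ± 0.755 and 20.2% ± 1.49, although its own CPM overlapped between genotypes. On raw counts Tmed7 was above Tmed3 in the WT mean (47.6% against 35.1%) and below it in the Wfs1KO mean (37.9% against 47.3%). Of the alpha kind, Tmed9 made up 42.4% ± 0.677 in WT and 47.1% ± 1.58 in Wfs1KO, the rest being Tmed4. How the counting assigned reads that fit more than 1 version is not given in the sources used here.

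**Figure D4:**
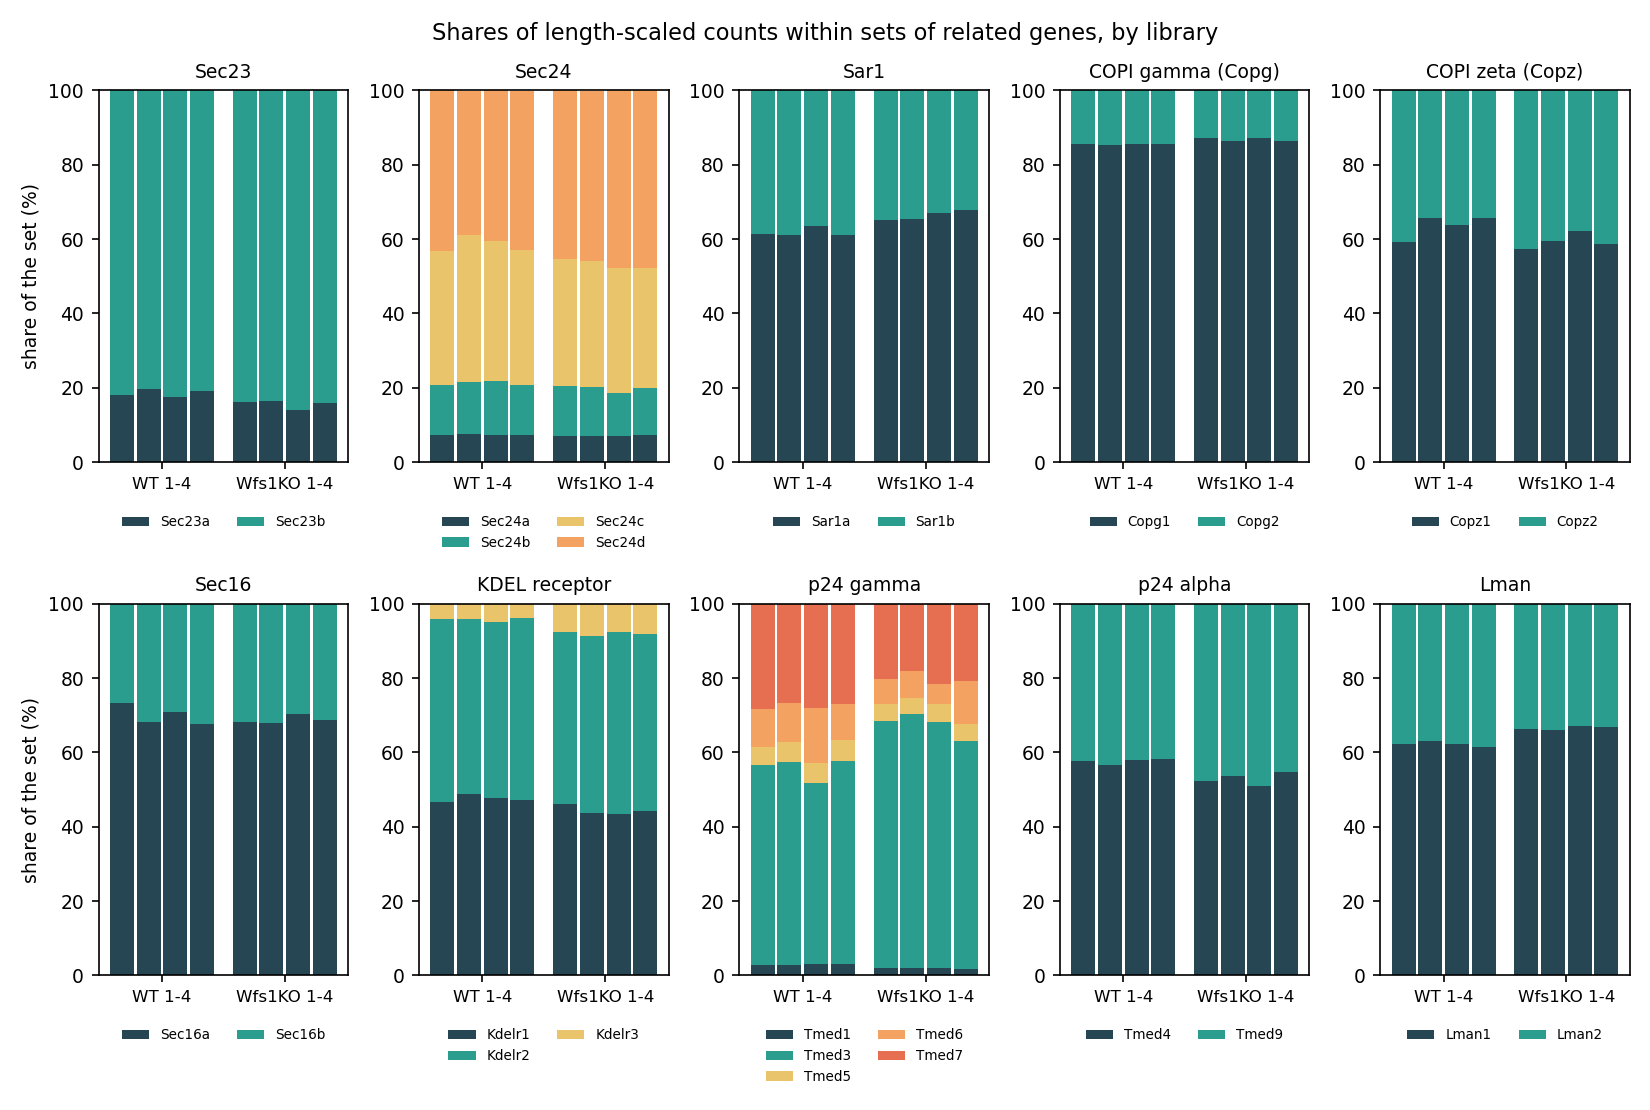
Share (%) of each gene in the length-scaled counts of its set of related genes, 1 stacked bar per library, WT replicates 1 to 4 on the left and Wfs1KO replicates 1 to 4 on the right of each panel. Kdelr3 goes from 4.17% to 7.98% of the KDEL receptors and Tmed3 from 53.0% to 65.6% of the gamma p24 proteins, while the Sec16 and Copz panels overlap between genotypes.

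Levels of the 40 genes in WT, compared per kilobase of transcript, spanned from 6.52 to 146 CPM per kb. Surf4 (146 ± 13.6), Copa (138 ± 5.8), Cope (136 ± 9.36), Tmed3 (130.1 ± 7.82) and Tmed4 (129 ± 8.82) were the 5 highest (SD, n = 4 each), and these neighbours did not differ beyond their spread. Lman1 (118 ± 3.05) and Sar1a (111 ± 9.33) followed. At the low end were Sec24a (8.8 ± 0.307), Tmed1 (7.13 ± 0.532) and Kdelr3 (6.52 ± 0.929), and the spreads of Tmed1 and Kdelr3 overlapped. The subunits of COPI, which sit in the coat in equal numbers, differed in level, from 73.1 ± 2.86 CPM per kb for Copb1 to 138 ± 5.8 for Copa among the subunits without a second version. The outer COPII partners differed too, with 96.3 ± 3.07 for Sec31a and 41.9 ± 2.79 for Sec13.

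**Figure D5:**
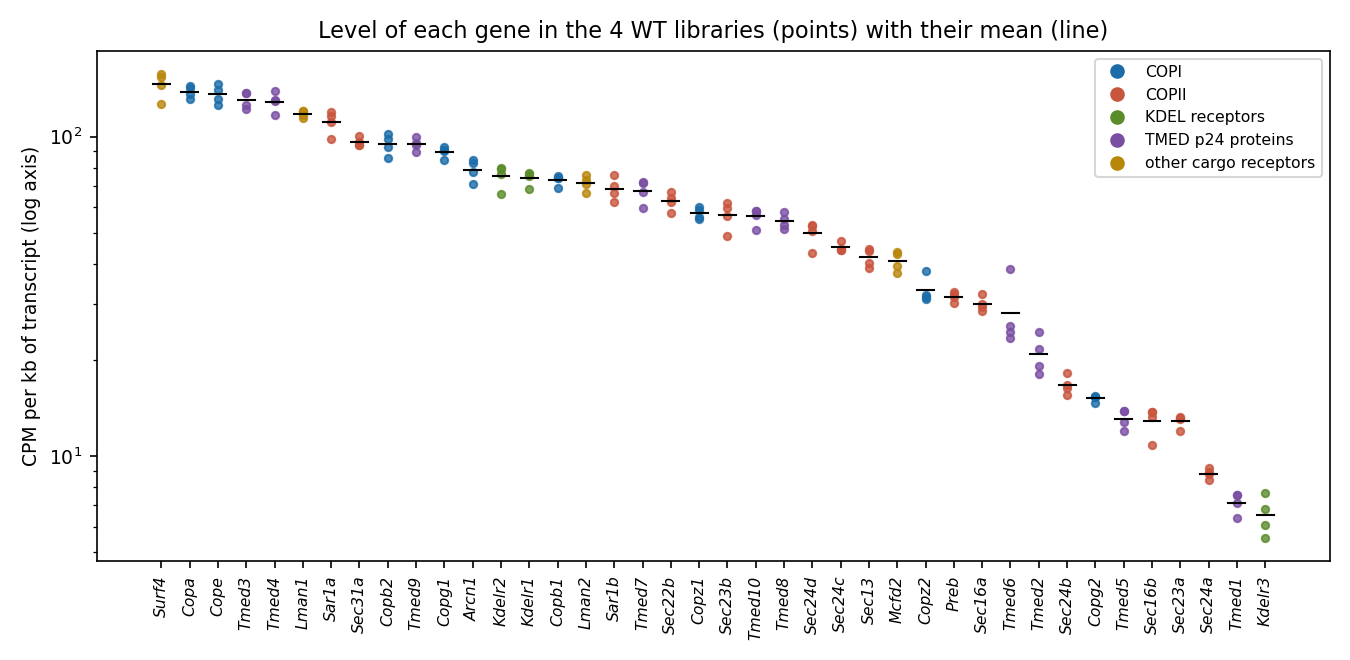
Level of each of the 40 genes in WT islets in CPM per kilobase of transcript, on a log axis; points are the 4 WT libraries, lines their mean, and colours the class. Levels run from 6.52 for Kdelr3 to 146 for Surf4, and every class except the KDEL receptors has a gene above 100 CPM per kb.

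Genes that act beside the coats were read from the same fit, in 6 lists with 73 tested genes, drawn up with earlier results of these data known. Of these 29 rose and 0 fell, beside 10.4% higher and 8.49% lower over all tested genes, with a median log2 fold change of 0.17 (at an unadjusted p under 0.05, and by DESeq2 and limma-voom, 0 were lower as well). Over all 15733 tested genes, DESeq2 called 1586 higher and 1540 lower, and limma-voom 1781 and 1524. An unadjusted p under 0.05 in edgeR was found in 4893 of them, in either direction. The ARF GTPases and regulators that recruit COPI rose in 3 of 9, namely Arfgap3 (log2 fold change 0.47), a GTPase activator that releases the coat, Arf4 (0.37) and Arf1 (0.25). ER exit site organisers rose in 3 of 5, Mia2 (0.18), Mia3 (0.19), which helps export procollagen, and Tfg (0.19), with adjusted p from 0.0409 to 0.0484, and DESeq2 called 2 of them and limma-voom 1. These calls held in few of the fits that left out 1 library: for Mia2 only without Wfs1KO replicate 2, for Mia3 without WT replicate 1 or Wfs1KO replicate 2, and for Tfg without WT replicate 4 or Wfs1KO replicate 1 (adjusted p 0.0594 to 0.16 in the others).

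SNAREs, tethers and Rab GTPases of ER-Golgi vesicles rose in 12 of 22. Bet1, a SNARE of ER-to-Golgi fusion, had the largest change (48.5 ± 1.63 CPM in WT, 74.7 ± 4.18 CPM in Wfs1KO, log2 fold change 0.62), and Nbas (0.48) and Stx18 (0.34), parts of the tether and SNARE that receive COPI vesicles at the ER, rose too. Further cargo adaptors rose in 7 of 14, among them Ergic2 (0.39), Yif1a (0.33) and the cornichon Cnih1 (0.31). Of the TRAPP complex, a tether that activates RAB1, 0 of 14 genes were called by edgeR, DESeq2 or limma-voom. At an unadjusted p under 0.05 in edgeR were 2 of the 14, beside 4893 of all 15733 tested genes. The median log2 fold change of the TRAPP genes was -0.01.

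Transcription factors known to drive secretory genes rose in 4 of 9. Creb3l1, a membrane-bound factor cleaved in the Golgi, had a log2 fold change of 0.46, Atf4 one of 0.35, Atf6 one of 0.31 and Creb3, named in addition after its value was seen, one of 0.31. Xbp1, whose total RNA does not show its splicing, had a log2 fold change of 0.10 and was not called. Exons of Cnih1, Creb3, Ergic2, Stx18 and Yif1a overlap genes on the other strand.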

How the data were processed

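Poly(A) RNA of 4 WT and 4 Wfs1KO islet samples was sequenced, and counts, the authors' comparison and reference sequences were used here. Per the submitters' processing notes, bcl2fastq, STAR 2.6.0a, HOMER 4.11.1, DESeq2 and the mm10 build were used. Per the file headers, the deposited counts are raw exon counts per RefSeq gene, without normalization, and no strand option was set. The log2 fold changes and p-values deposited by the authors are of their own DESeq2 comparison, whose settings are not stated. The authors' transformed log2 values per sample were left unused.

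The count table held 24537 genes and 0 columns of other samples. In R 4.3.3, edgeR 4.0.16 (TMM scaling, filterByExpr with minimum count 10 and minimum total count 15, robust quasi-likelihood F-test) compared the genotypes over 15733 genes. A gene was called at a Benjamini-Hochberg adjusted p under 0.05 over all of them, and only called genes are said to have risen or fallen. CPM use TMM-scaled library sizes. Each SE was obtained by dividing the log2 fold change, without its sign, by the square root of F. CPM per kb divide by the transcript length in the count table. The p-values measure the spread between samples, and the labels do not say whether a sample pooled animals.

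The 40 genes, the lists of other genes and the tests were chosen with earlier results of these data known. CPM in every library are given for up to 4 called genes of a class with the smallest adjusted p. They are also given for its most abundant gene and for any gene that fell. Of each list of genes beside the coats up to 3 called genes are named by this rule, and every endocrine marker is named. Tmed6, Copg2, Sec31a, Creb3 and Xbp1 were added after their values were seen, as were the p24 sets, the CCACG motif, the windows of tested genes as a background, and the 6 windows and 8 genes shown. Limma 3.58.1, DESeq2 1.42.0, other filters, scalings and covariates, a threshold of 0.01, a block on the replicate number, and fits without each single library were alternatives. The block of replicates 1 and 2 against 3 and 4, each of these pairs by itself, and fits without Wfs1KO replicates 3 and 4 together came later. Searches of protein sequences, and a list of KDEL-type ligands that depends on them, were planned and not run.

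The replicate numbers come from the labels. Deviations of same-numbered samples from their genotype means correlated across the tested genes at 0.153, 0.443, 0.269 and 0.188 in edgeR's log2 CPM. On log2(CPM + 1), which was computed first, they correlated at 0.00357, 0.369, 0.0899 and 0.104, so the values depend on the scale. Samples with unlike numbers were not compared, so these values cannot show whether the numbers pair the samples. Genes are not independent replicates.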

Additional observations from a re-analysis of the deposited data

Results flagged for a closer look

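In groups of 4 libraries, 17 values lay far from the other 3 by Dixon's criterion, 12 of them in the 40 genes, out of 152 groups checked, of which 80 were of the 40 genes. Chance would mark about 1 in 20 groups if they were independent. These groups come from the same libraries and are not independent, so the number marked cannot be set against that rate. Wfs1KO replicate 3 was the high library for Copg1 (435 CPM), Sec22b (154 CPM) and Sec23b (237 CPM), and among genes beside the coats for Gosr2 (199 CPM), Rint1 (69.3 CPM) and Scfd1 (150.2 CPM). WT replicate 2 was the low library for Copg2 (58.6 CPM), Sec23a (48.9 CPM), Kdelr1 (104 CPM) and Arf1 (257 CPM). WT replicate 1 was high for Copz2 (34.9 CPM) and low for Sec16b (49.6 CPM). WT replicate 3 was high for Sec24c (209 CPM) and for Tmed6 (33.0 CPM). Wfs1KO replicate 1 was low for Kdelr3 (22.3 CPM), and Wfs1KO replicate 4 was low for Tmed4 (206 CPM) and high for Ergic2 (94.2 CPM).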

How the results depend on the processing

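Of the 27 called genes among the 40, 15 kept the call under all 21 alternatives and 12 lost it under at least 1, and 20 kept it without any 1 library; 0 reversed direction while called. Leaving out each library in turn gave 20 to 26 genes called higher and 0 to 1 called lower. In these fits 8.51% to 9.20% of all tested genes were higher. The fall of Tmed8 was not called (0 genes lower) with no filter, with the acinar score as a covariate, at a threshold of 0.01 or with replicates 3 and 4 only. Over all tested genes, 962 were higher and 782 lower at a threshold of 0.01, and 964 and 882 with replicates 3 and 4 only, against 1548 and 1391 with replicates 1 and 2 only; the cause was not tested. Without Wfs1KO replicates 3 and 4, 17 of the 40 were higher, beside 9.56% of all tested genes. The medians were then 0.18 for all 40, 0.19 for COPI, 0.09 for COPII, 0.38 for the KDEL receptors and 0.10 for the TMED genes. The cause was not tested. The replicate block gave 26 genes higher and 1 lower, beside 10.2% of all tested genes higher, and changed no call among the 40. The lowest count of the 40 genes in a library was 135, so counting error adds most to the spread of the least abundant genes.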
